A study of Rattus norvegicus with 4 samples.

Results

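The cytochrome P450 genes of families 1, 3 and 4 were followed in rat liver 12 h after ligation of the common bile duct. They were taken as the probes whose platform symbols all begin with Cyp1a, Cyp1b, Cyp3a, Cyp4a, Cyp4b or Cyp4f, which gave 17 of the 1936 probes and 11 gene symbols. Of these probes, 2 were named for Cyp1a2, 1 for Cyp3a23-3a1, 5 for Cyp4a genes, 1 for Cyp4b1 and 8 for Cyp4f genes, and no probe was named for a Cyp1b gene. These arrays carried cDNA spots, and closely related P450 cDNAs can share a spot's signal. Probes of 1 gene were averaged and probes with several entries were kept apart, so that 12 members were tested among 1174 features, 8 of them genes and 4 of them single spots. The spots kept apart were a pair shared by Cyp4a2 and Cyp4a3 (spots 745 and 1507) and a pair listed under 2 gene numbers that both carry the symbol Cyp4a1 (spots 990 and 1698).

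The ligation pool was RNA from the right lateral liver lobe of 3 male Sprague-Dawley rats of 250 to 300 g with a ligated common bile duct, and it was set against RNA pooled from 3 sham-operated rats whose duct was exposed and left untied. Both operations were done under ether anaesthesia and the rats of both pools were of 1 strain, with no drug or transgene named. Each of 4 two-colour cDNA arrays carried both pools, with the ligation pool in Cy5 on arrays 1 and 3 and in Cy3 on arrays 2 and 4. Each pool mixed animals before labelling and nothing in the labels says that the arrays used separate pools, so every p-value here covers array-to-array spread alone, which may be technical. The values are log ratios, and they are given here as log2 of ligation over sham. That direction is likely, from the order of the channels in the labels, but neither it nor the logarithm's base is given. A ratio carries no level, so the tissue could not be checked by the abundance of liver markers, and fewer hepatocytes or less RNA per hepatocyte cannot be told apart.

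Cytochrome P450 enzymes are haem proteins that add oxygen to drugs, steroids and fatty acids, and the hepatocyte is their main site. Different receptors control the families. The aryl hydrocarbon receptor (AhR) induces Cyp1 genes, the pregnane X receptor (PXR) and the constitutive androstane receptor (CAR) induce Cyp3a genes, and the peroxisome proliferator-activated receptor alpha (PPAR-alpha) induces Cyp4a genes, which hydroxylate the end of fatty acid chains. Cyp4f enzymes hydroxylate leukotrienes and arachidonate.

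The members did not all move one way. Cyp1a2 fell 3.64-fold in the ligated pool (log2 -1.86 ± 0.08, SE, 4 arrays), Cyp4f4 1.84-fold and Cyp3a23-3a1 1.62-fold, while the spots shared by Cyp4a2 and Cyp4a3 were 1.53-fold and 1.56-fold higher. With limma and a Benjamini-Hochberg adjusted p below 0.05 as the call, 6 of 12 members were lower, 2 higher and 4 did not pass, against a background of 16.6% of the 1174 features lower and 12% higher. The ligation term, the fitted log2 ratio once each array is centred on its median and the dye effect is set apart, had a median of -0.22 over the members and -0.01 (-0.013) over all features. Only Cyp1a2 and Cyp4f4 were both at least 1.5-fold lower and below 0 on all 4 arrays, a pattern that 3.32% of features showed. No member had the matching pattern in the higher direction, which 1.19% of features showed. Read as Cy5 over Cy3 on every array, the same table would give 1 member lower and 10 higher, against 33.4% of all features lower and 45.4% higher. Without a dye term in the model, limma called 0 members and 0 of 1174 features, while 2 members and 74 features had an unadjusted p below 0.05. Without centring, 10 members were lower and 2 higher, against 82.2% of all features lower and 1.7% higher.

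**Figure D1:**
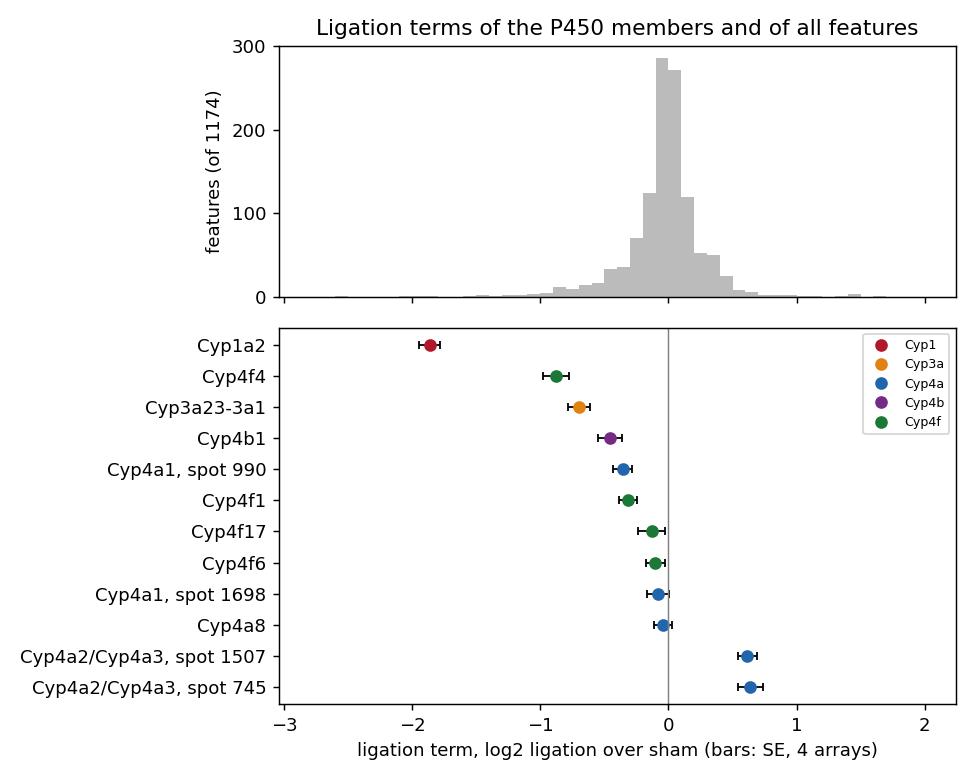
Upper panel, histogram of the ligation term (log2 ligation over sham) of 1174 features, in bins on the same horizontal axis as the lower panel. Lower panel, the 12 P450 members in rising order with their standard errors over 4 arrays, coloured by family. Cyp1a2 at -1.86 lies in the lower tail, and the spots shared by Cyp4a2 and Cyp4a3, at 0.61 and 0.64, lie in the upper tail (ranks 18 and 17 from the highest).

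Cyp1a2, the main hepatic Cyp1 enzyme, which oxidises caffeine and aromatic amines, had the fourth lowest ligation term of all 1174 features (rank 4). Its deposited values were -2.19, -2.35, -2.18 and -2.25 on arrays 1 to 4 (mean -2.24 ± 0.08, SD, n = 4). They spanned 0.17 log2 units, against a median span of 1.53 over all features. With the median of all probes subtracted from each array, the values were -0.94, -2.78, -1.23 and -2.51. All 4 were below 0, and the values of the Cy3 arrays were lower than those of the Cy5 arrays. The 2 spots of the gene lay close together, at -1.88 ± 0.09 (spot 1713) and -1.85 ± 0.08 (spot 1244), in different print blocks. The adjusted p of limma was 5.98e-09 for the gene. If the deposited values were Cy5 over Cy3, the signs of arrays 2 and 4 would turn, and ligation over sham would be -2.19, 2.35, -2.18 and 2.25.

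The 250 bases upstream of the RefSeq start of Cyp1a2 (assembly GRCr8, chr8:66978150-66978399, minus strand) are shown because it is the member that fell most. Capitals mark TATAAA, the TATA box hexamer, which starts 39 bases before the gene start and was found on the gene strand in 8.06% of windows. The AhR core motif GCGTG was not found in this window on either strand. On both strands, 25.9% of 33469 rat promoter windows of the same length hold it.
Cyp1a2: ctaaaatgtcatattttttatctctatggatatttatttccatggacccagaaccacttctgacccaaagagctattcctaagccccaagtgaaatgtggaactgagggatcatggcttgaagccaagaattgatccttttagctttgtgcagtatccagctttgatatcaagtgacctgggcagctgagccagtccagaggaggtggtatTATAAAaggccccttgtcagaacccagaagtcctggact

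Cyp3a23-3a1, a PXR-inducible enzyme that hydroxylates steroids, bile acids and many drugs, was read by a single spot. Its deposited values were -1.51, -0.90, -0.74 and -1.17 on arrays 1 to 4, all below 0. Centred, they were -0.25, -1.33, 0.22 and -1.43, so array 3 stood above 0 and the others below. The ligation term was -0.70 ± 0.09 (limma adjusted p = 4.72e-05), rank 46 from the lowest. Leaving out single arrays gave values from -0.81 to -0.58. As the only Cyp3a spot, and as Cyp3a genes are close in sequence, it may also read related transcripts.

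The promoter of Cyp3a23-3a1 (GRCr8, chr12:14398804-14399053, minus strand) is shown for a pair of hexamers of the kind PXR binds. Capitals mark 2 copies of TGAACT separated by 3 bases, which is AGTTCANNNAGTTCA read on the opposite strand and starts 144 bases before the gene start. Searched on both strands, that repeat occurs in 2 of the 33469 windows (0.00598%), those of Cyp3a23-3a1 and Cyp3a2. The everted repeat TGAACTNNNNNNAGTTCA, another form PXR binds, was found in no window. The single hexamer AGTTCA, which the repeat contains, occurs in 12.2% of windows. A match describes letters and is not a measured binding site.
Cyp3a23-3a1: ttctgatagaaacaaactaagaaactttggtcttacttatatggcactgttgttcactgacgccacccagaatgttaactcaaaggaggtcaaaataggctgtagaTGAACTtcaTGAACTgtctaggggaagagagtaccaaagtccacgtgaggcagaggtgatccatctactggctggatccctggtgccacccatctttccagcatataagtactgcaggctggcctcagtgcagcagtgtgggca

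The Cyp4a genes did not move together. Spot 745, shared by Cyp4a2 and Cyp4a3, had deposited values of 0.57, 0.16, 0.19 and 0.11, and spot 1507 had 0.28, 0.24, 0.39 and 0.02. All 8 values were above 0, a pattern shown on 4 arrays by 1.79% of features, whereas 28.4% were below 0 on all 4. Centred, spot 745 was at 1.83, -0.26, 1.14 and -0.15, and spot 1507 at 1.54, -0.18, 1.34 and -0.24. Both spots were thus above 0 on the Cy5 arrays and slightly below 0 on the Cy3 arrays. Their ligation terms were 0.64 ± 0.10 (limma adjusted p = 0.000303) and 0.61 ± 0.07 (3.86e-05), ranks 17 and 18 from the highest. Without centring they were at 0.26 and 0.23 and still passed (adjusted p = 0.0244 and 0.0298), a change of more than 1.5 times in size that comes with the zero point.

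Cyp4a1, the classical PPAR-alpha-induced lauric acid hydroxylase, had deposited values of -0.84, -0.65, -0.77 and -0.69 at spot 990 and of -0.41, -0.54, -0.46 and -0.45 at spot 1698. These ratios spanned only 0.19 and 0.13 over the arrays. The ligation terms were -0.36 ± 0.08, which passed (limma adjusted p = 0.00303), and -0.08 ± 0.08, which did not (0.562). The spots of this gene therefore differed in call. Cyp4a8, a further fatty acid hydroxylase, had -1.93, 1.02, -1.68 and 0.89 as deposited, negative on the Cy5 arrays and positive on the Cy3 arrays. Its term was -0.04 ± 0.07 (adjusted p = 0.761).

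In GRCr8, Cyp4a3, Cyp4a1 and Cyp4b1 follow each other on chromosome 5 with no gene between them, and Cyp4a2 and Cyp4a8 lie in the same cluster. The probes of these neighbours gave terms of 0.61 and 0.64 for Cyp4a2 and Cyp4a3, -0.36 and -0.08 for Cyp4a1 and -0.45 for Cyp4b1. The promoters of Cyp4a2 (chr5:134170909-134171158, minus strand) and Cyp4a3 (chr5:134352237-134352486, minus strand) are shown side by side because the array could not separate the pair. They were 96.3% identical over 245 aligned bases. Capitals mark AGGTCA, the hexamer of PPAR-alpha sites, 105 bases before the start in each, which 14.1% of windows hold on either strand. The direct repeat AGGTCANAGGTCA was not found in either window, and 0.0508% of windows hold it.
Cyp4a2: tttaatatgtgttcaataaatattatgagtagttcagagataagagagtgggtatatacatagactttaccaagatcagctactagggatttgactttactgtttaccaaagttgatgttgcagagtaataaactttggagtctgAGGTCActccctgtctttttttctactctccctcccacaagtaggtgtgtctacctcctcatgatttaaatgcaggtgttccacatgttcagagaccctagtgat
Cyp4a3: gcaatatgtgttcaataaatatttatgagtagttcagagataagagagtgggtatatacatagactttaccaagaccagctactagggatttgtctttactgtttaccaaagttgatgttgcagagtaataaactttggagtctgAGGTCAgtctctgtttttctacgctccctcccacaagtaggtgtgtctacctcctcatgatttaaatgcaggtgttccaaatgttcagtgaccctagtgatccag

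Cyp4b1, which is best known for activating protoxins and fatty acids in the lung, was at -1.18, -0.12, -1.24 and -0.81 as deposited and at 0.08, -0.55, -0.28 and -1.07 after centring. Array 1 alone was above 0 once centred. The term was -0.45 ± 0.10 (limma adjusted p = 0.00289). Without array 3 it was -0.36 and no longer passed (adjusted p = 0.0595).

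Of the 4 Cyp4f genes, Cyp4f4 and Cyp4f1 were lower and Cyp4f6 and Cyp4f17 did not pass. Cyp4f4, a hydroxylase of leukotrienes and arachidonate, was at -1.44, -0.66, -1.54 and -1.39 as deposited and at -0.18, -1.08, -0.59 and -1.65 after centring. All values were below 0 on both scales, and array 2 was the least negative as deposited. Its spots were at -0.91 ± 0.09 (spot 642) and -0.84 ± 0.11 (spot 750), and the gene had limma adjusted p = 2.46e-05. Cyp4f1 had deposited values of -0.88, -0.57, -0.56 and -0.78 and centred values of 0.38, -0.99, 0.39 and -1.04. The sign of its centred values followed the dye, with a term of -0.32 ± 0.07 (adjusted p = 0.00439).

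Cyp4f6 was read by 4 spots that fell into 2 kinds. Spots 436 and 198 had deposited values from -0.86 to -0.45, below 0 on every array, and terms of -0.36 ± 0.09 and -0.15 ± 0.08, of which only that of spot 436 passed (limma adjusted p = 0.00925, but 0.0665 without array 3). Spot 198 ranged from -0.25 to -0.06 (-0.0613) with single arrays left out, and passed without array 1 (adjusted p = 0.0434). Spots 410 and 1378 were negative on the Cy5 arrays and positive on the Cy3 arrays as deposited, from -1.83 to 0.98, with terms of 0.01 (0.012) and 0.08. Averaged, Cyp4f6 was at -0.10 ± 0.07 (adjusted p = 0.372). Cyp4f17 had -1.18, -0.05, -1.28 and 0.46 as deposited and a term of -0.13 ± 0.11 (adjusted p = 0.451). Without array 4 it was at -0.30 and passed (adjusted p = 0.0422), and without array 2 it was at 0.04.

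**Figure D2:**
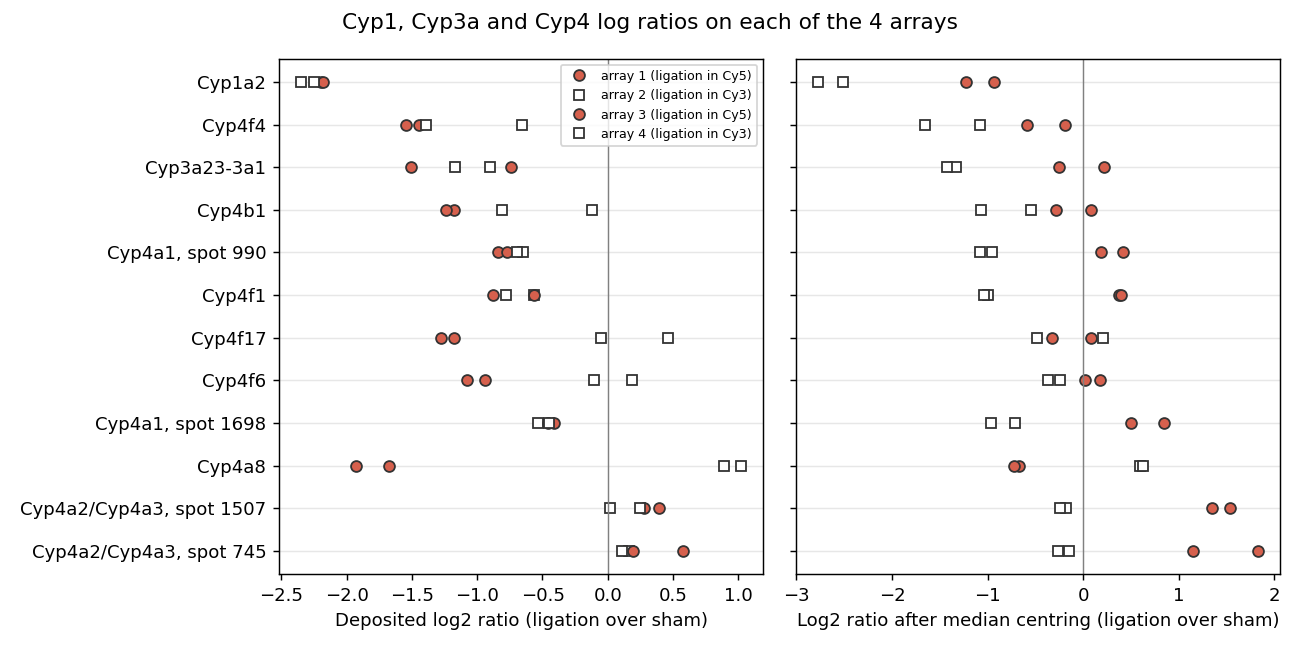
Log2 ratios (ligation over sham) of the 12 P450 members on each array, as deposited (left) and after centring each array on its median (right), with filled circles for arrays with ligation in Cy5 and open squares for those with ligation in Cy3. As deposited, the values of Cyp1a2, both Cyp4a1 spots and both Cyp4a2/Cyp4a3 spots lie close together, while those of Cyp4a8, Cyp4f17 and Cyp4f6 separate by dye.

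The dye terms of the members differed before and after centring. In the centred data, 11 of 12 members had a positive dye term, meaning a higher ratio where ligation was in Cy5, as did 56.6% of all features. The median dye term was 0.67 over the members and 0.10 over all features. As deposited, the dye terms were close to 0 for Cyp1a2 (0.06), Cyp3a23-3a1 (-0.04), Cyp4f1 (-0.02) and the Cyp4a1 spots (-0.07 and 0.03), and 0.10 and 0.12 for the Cyp4a2/Cyp4a3 spots, against a median of -0.63 over all features. Cyp4f4 was at -0.23, Cyp4b1 at -0.37, Cyp4f6 at -0.52, Cyp4f17 at -0.72 and Cyp4a8 at -1.38. The 3 members with the largest swing by dye as deposited were thus all among those not called.

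Calls were also more frequent toward the positive end of the centred dye term, which is not the same as a large dye effect. The median over all features was 0.10 centred and -0.63 as deposited, so a high centred term can go with little dye response as deposited. The features were sorted by signed centred dye term into 4 groups of 293 or 294. Limma called 1.7% in the lowest group (-0.89 to -0.32), 19.5% in group 2, 40.3% in group 3 and 53.1% in the highest (0.54 to 0.96). Of the members, 7 lay in the highest group, where 6 were called, and 3 in group 3, where 2 were called. Cyp4f17 and Cyp4a8 lay in the lower groups and were not called. Over all features 28.6% were called. By direction, 33% of the highest group were lower and 20.1% higher, and in group 3 21.2% were lower and 19.1% higher. These shares are above the 16.6% and 12% over all features that stand beside the member counts. Signal intensity was not used here, and its part in this was not tested.

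**Figure D3:**
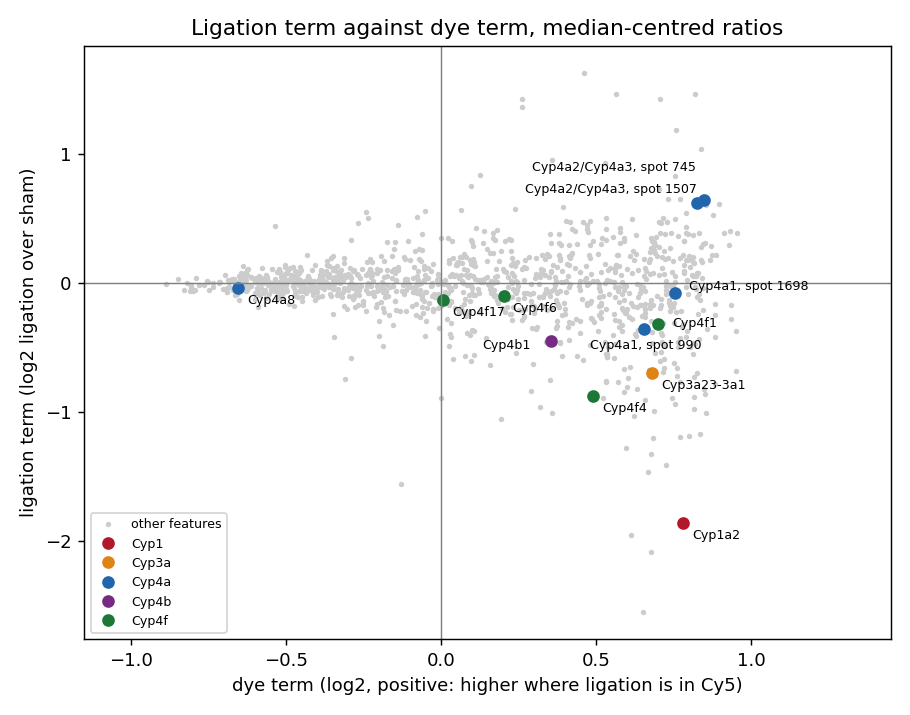
Ligation term (vertical axis, log2 ligation over sham) against dye term (horizontal axis, log2, positive where ratios were higher with ligation in Cy5) for 1174 features in grey and the 12 P450 members in family colours. The spread of ligation terms widens to the right, from an SD of 0.08 (0.0769) in the lowest of 4 groups by dye term to 0.51 in the highest, and 7 members lie in that highest group.

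Differences between members on one array are not changed by subtracting 1 value from the whole array, as median centring does, and were compared over the 6 pairs of Cyp1a2, Cyp3a23-3a1, Cyp4f4 and the mean of the Cyp4a2/Cyp4a3 spots. With 4 arrays, the exact two-sided sign-flip permutation test cannot go below p = 0.125. Cyp1a2 minus Cyp4a2/Cyp4a3 was -2.62, -2.55, -2.47 and -2.32 on arrays 1 to 4. The mean of -2.49 ± 0.13 (SD, n = 4) is a 5.62-fold gap, and it was -2.38 with print-block centring, -2.30 after quantile normalization and -0.055 (exact permutation p = 0.875, n = 4) if the table is read as Cy5 over Cy3. Cyp4f4 minus Cyp4a2/Cyp4a3 was -1.50 ± 0.47 and Cyp3a23-3a1 minus Cyp4a2/Cyp4a3 was -1.32 ± 0.41 (SD, n = 4). Read as ligation over sham, the Cyp4a2/Cyp4a3 mean thus stood above each of the others on every array. Read as Cy5 over Cy3, these differences would be -0.35 (exact permutation p = 0.75, n = 4) and -0.16 (p = 1).

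Cyp1a2 was also below Cyp3a23-3a1, by -1.17 ± 0.36, and below Cyp4f4, by -0.99 ± 0.48 (SD, n = 4), on all 4 arrays. Each of these 5 differences had an exact permutation p of 0.125, adjusted to 0.15 over the 6 pairs. Cyp3a23-3a1 minus Cyp4f4 was -0.06, -0.25, 0.80 and 0.23, with a mean of 0.18 ± 0.46 (SD, n = 4, exact permutation p = 0.75), less than the spread between arrays. Among these compared members under the likely direction, Cyp1a2 was lowest, Cyp4f4 and Cyp3a23-3a1 could not be ordered, and Cyp4a2/Cyp4a3 was highest. They had the lowest and the highest ligation terms of all members and were chosen with earlier results known. This order was therefore largely set by the choice. Cyp4a1 (-0.36 and -0.08), Cyp4a8 (-0.04), Cyp4b1 and the other Cyp4f genes were not in the pairs. Read as Cy5 over Cy3, Cyp1a2 minus Cyp3a23-3a1 would be 0.10 and Cyp1a2 minus Cyp4f4 0.29, and no difference of the 6 had an exact permutation p below 0.625.

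**Figure D4:**
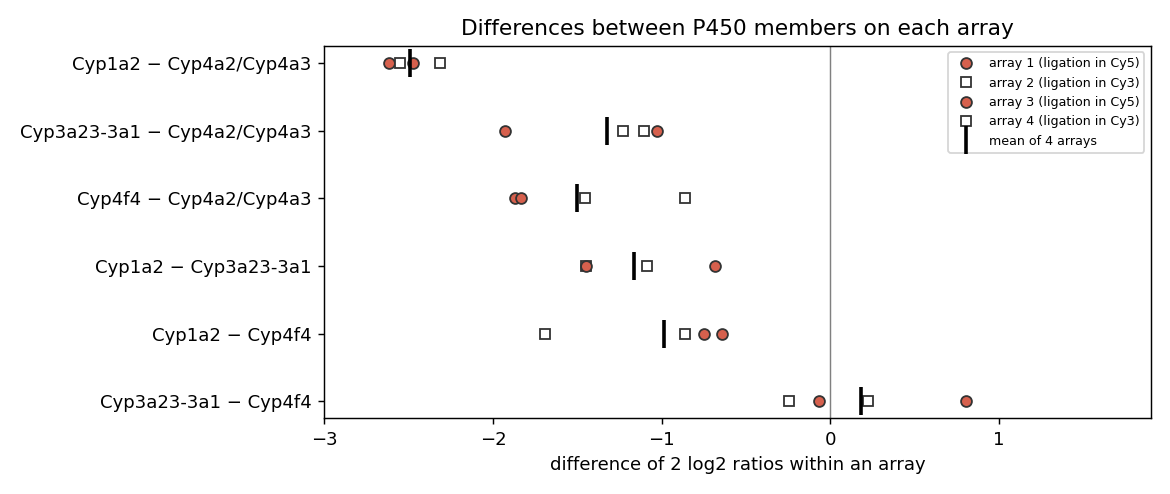
Difference of the log2 ratios (ligation over sham) of 2 P450 members within each array, for 6 pairs, with filled circles for arrays with ligation in Cy5, open squares for those with ligation in Cy3 and a bar at the mean of 4 arrays. The first 5 pairs lie below 0 on every array, and Cyp3a23-3a1 minus Cyp4f4 straddles 0.

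The other genes of each receptor pathway were set beside its P450 member, against 16.6% of all 1174 features lower and 12% higher. Of 2 measured AhR targets, both were lower, the quinone reductase Nqo1 at -0.37 ± 0.08 and the glutathione transferase Gsta2 at -0.46 ± 0.08, beside -1.86 for Cyp1a2. Ahr itself was at 0.03 (0.028) ± 0.07 and did not pass (limma adjusted p = 0.854), but was at -0.35 without centring (adjusted p = 0.00385). Without centring the median of all features was -0.39 and 82.2% were lower, so Ahr lay near the middle of the array in both settings. Of 7 measured PXR and CAR targets, 2 were lower (Gsta2 again and the reductase Por), 2 higher and 3 did not pass, with a median of -0.06. The higher ones were the retinal dehydrogenase Aldh1a1 (0.56 ± 0.08) and the canalicular exporter Abcc2 (0.30 ± 0.08), and neither passed without centring (0.18 and -0.09). The call of Abcc2 also ended without array 1 (adjusted p = 0.0976) or array 2 (0.0753), with print-block centring (0.115) and with centring on the probes of most positive centred dye term (0.0728).

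Of 7 measured PPAR-alpha targets, 4 were lower, none higher and 3 did not pass, with a median of -0.23, while the Cyp4a2/Cyp4a3 spots were higher. The shares over all 1174 features were 16.6% lower and 12% higher. The acyl-CoA synthetase Acsl1 was at -1.96 ± 0.08 and the fatty acid translocase Cd36 at -0.39 ± 0.10. The carnitine transferase Cpt1a was at -0.30 ± 0.08 and the thiolase subunit Hadhb at -0.21 ± 0.07. The calls of Cd36 (adjusted p from 0.0858 to 0.232 without arrays 1, 3 or 4), Cpt1a (0.0546 and 0.0823 without arrays 3 or 4) and Hadhb (0.112 to 0.248 without arrays 1, 2 or 4) were lost when those arrays were left out. Centring on the probes of most positive centred dye term also ended the calls of Cd36 (limma adjusted p = 0.0563) and Hadhb (0.106). That of Hadhb ended as well with centring on the tested features (0.0914) and quantile normalization (0.0694). Rxra, the shared partner of PXR, CAR and PPAR-alpha, was lower at -0.50 ± 0.07 (limma adjusted p = 0.000196). Arnt, Nr1i2 (PXR), Nr1i3 (CAR) and Ppara (PPAR-alpha) had no tested feature of their own, so these receptors could not be read. Among the other receptors, Nr1h4 (the bile acid receptor FXR) was lower and Nr0b2 (the repressor SHP) higher, at -0.64 and 0.65, and 4 of 7 did not pass.

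Of 7 measured genes of electron supply and haem handling, 5 were lower, none higher and 2 did not pass, with a median of -0.30. Of all 1174 features, 16.6% were lower and 12% higher. The cytochromes b5 Cyb5b and Cyb5a were at -0.81 ± 0.08 and -0.58 ± 0.08 and the haem-binding protein Pgrmc1 at -0.36 ± 0.10. The cytochrome b5 reductase Cyb5r3 was at -0.30 ± 0.07 and Por, the reductase of microsomal P450 enzymes, at -0.24 ± 0.07. By centred dye term, Cyb5b and Pgrmc1 lay in the highest group, where 33% of features were lower. Cyb5a and Por lay in group 3 (21.2% lower) and Cyb5r3 in group 2 (11.6%). The calls of Por (adjusted p = 0.0833, 0.103 and 0.172 without arrays 2, 3 or 4), Pgrmc1 (0.11 and 0.159 without arrays 2 or 3) and Cyb5r3 (0.0624 without array 4) were lost when single arrays were left out. The call of Pgrmc1 also ended with print-block centring (limma adjusted p = 0.0605). Of 6 other enzymes of arachidonate oxygenation, the fatty acid hydroxylase Cyp2u1 (0.83 ± 0.07) and the epoxide hydrolase Ephx2 (0.49 ± 0.08, but 0.11 without centring and not called) were higher. Cyp2c23, an arachidonate epoxygenase, was lower at -0.27 ± 0.08, and 3 did not pass. The call of Cyp2c23 ended when array 3 (limma adjusted p = 0.151) or array 4 (0.161) was dropped. It also ended with the median of its probes (-0.17, adjusted p = 0.116) and after quantile normalization (0.0585).

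**Figure D5:**
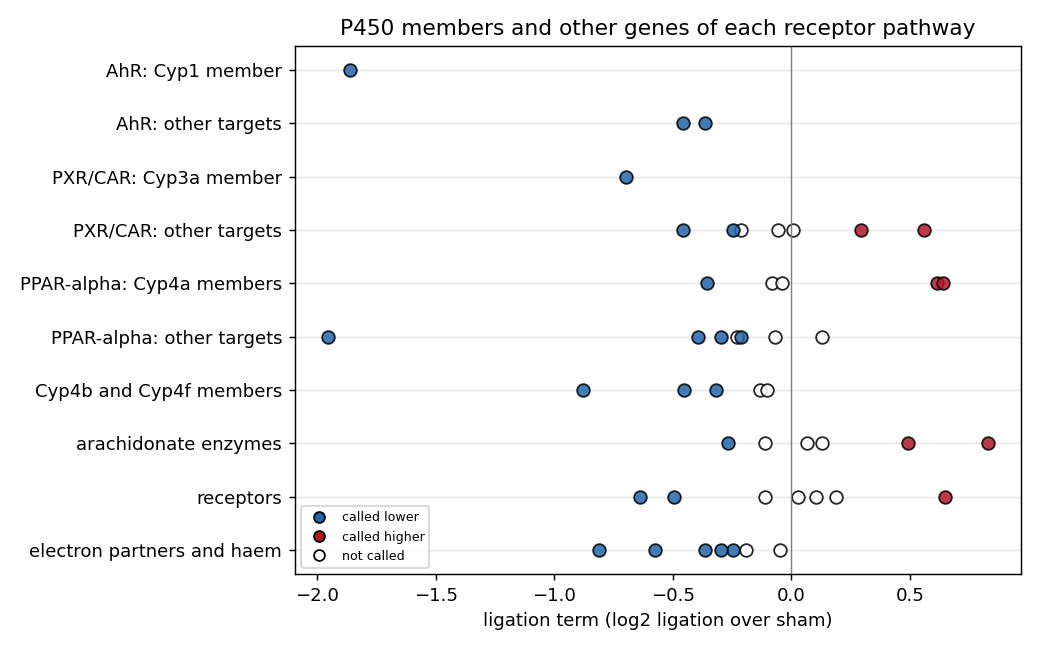
Ligation terms (log2 ligation over sham) of the P450 members and of the other measured genes of each receptor pathway, with 1 row per group and 1 point per gene or shared spot, filled blue where called lower, red where called higher and open where not called. The Cyp4a row runs from -0.36 to 0.64, while the other PPAR-alpha targets run from -1.96 to 0.13.

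Genes outside these families with the nearest values over the 4 arrays were found by the root mean square difference of centred log2 ratios. Nearest to Cyp1a2 were Acsl1 (0.23), the organic anion carrier Slc22a8 (0.43) and the mitochondrial protein Tspo (0.46). Nearest to Cyp3a23-3a1 were the kinase Hipk3 (0.24), the IGF carrier subunit Igfals (0.26) and the sterol hydroxylase Cyp27a1 (0.27). Nearest to Cyp4f4 were the receptors Fgfr3 (0.10) and Avpr1a (0.18) and the monoamine oxidase Maob (0.21). Nearest to the Cyp4a2/Cyp4a3 mean were the enolase Eno1 (0.11), Nr0b2 (0.11) and the receptor Nr1h2 (0.14). The measure includes the response to the dye as well as to ligation.

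Markers of hepatocytes and other liver cells were read on the same arrays. All 5 measured hepatocyte products (Tf, Ttr, Apoa1, Serpina1 and Fgg) were higher, from 0.20 to 0.38, and from -0.18 to -0.0039 without centring, where limma called 0 of them and 0 had an unadjusted p below 0.05. With centring, 12% of all features were higher and 16.6% lower. The centred values of Tf, Ttr, Apoa1 and Fgg were above 0 on the Cy5 arrays and below 0 on the Cy3 arrays, and those of Serpina1 were above 0 on all 4. The cholangiocyte marker Spp1 was at 0.14 and did not pass. Of 3 stellate cell markers 1 was lower and 1 higher, of 4 endothelial markers 2 were lower with Ece1 lowest at -1.18, and the leukocyte marker Cd53 was lower at -0.27. Neither of 2 blood cell markers passed. Without centring, 2 of 3 stellate, 4 of 4 endothelial and 2 of 2 blood cell markers were lower and none was higher. Spp1 was then lower at -0.25 (-0.245, limma adjusted p = 0.0438). In that setting 82.2% of all features were lower and 1.7% higher, so these counts follow the zero point of the whole array. The part of these cells in the P450 values was not tested.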

How the data were processed

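Per the labels, total RNA of 3 rats per group was mixed, poly(A) RNA was reverse transcribed with Cy3 or Cy5 and both pools were hybridised to a glass slide of 1800 stated rat genes. The authors deposited 1 log ratio per probe and array, taken here as log2. The scanning, background correction, normalization, logarithm base and direction were not given in the sources used here. Read as natural logarithms, Cyp1a2 would be 6.44-fold lower. The column medians were -1.26, 0.43, -0.96 and 0.26. Pearson r over probes was 0.93 and 0.94 between arrays of the same dye orientation and -0.45, -0.36, -0.35 and -0.28 between opposite ones.

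Symbols came from the platform annotation. All 11 member symbols matched the RefSeq gene table of GRCr8, and 8 had a promoter entry. The 288 spots at 18 positions unnamed in all 16 print blocks were taken as control spots and left out. Arrays were centred on their median, and limma 3.58.1 (R 4.3.3) fitted a ligation and a dye term, with 2 residual and 10.4 prior degrees of freedom, and Benjamini-Hochberg adjustment over 1174 features. The fit was run on data simulated from its own model, with independent normal noise, which cannot test whether that model suits these arrays. The number of arrays limits precision, with a median SE of 0.08 (0.0758). Named genes were all members, list genes that passed, the family receptors and Por, and the 3 genes nearest to each lead member. The members, lists and rules were chosen with earlier results of these data known. Alternatives were other centrings, quantile normalization, no dye term, a robust prior, the other direction, the median of probes, control spots kept and each array left out.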

Additional observations from a re-analysis of the deposited data

How the results depend on the processing

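The direction read from the labels, the dye term and the zero point set the calls. Without centring, which moved the median of all features by -0.38, 10 members were lower, as were 27 list genes and 965 features, and 2 list genes and 20 features were higher. Cyp4a1 spot 1698 (-0.46), Cyp4a8 (-0.42), Cyp4f17 (-0.51) and Cyp4f6 (-0.49) then passed, and Abcc2 (-0.0864), Ahr (-0.35) and Cyp4f6 spots 410 (-0.37) and 1378 (-0.30) turned sign. Centring on the probes with the most positive centred dye terms left 79 features higher and turned Ahr (-0.0132) and spot 410 (-0.0293). Print-block centring turned them (-0.0519 and -0.0662), and quantile normalization turned spot 410 (-0.00273). With control spots kept, 239 features were higher. Without the dye term limma called 0 members, 0 list genes and 0 features in either direction (2 members and 74 features at an unadjusted p below 0.05). The values stayed at -1.86 for Cyp1a2 (adjusted p = 0.211), -0.70 for Cyp3a23-3a1, -0.88 for Cyp4f4, -0.45 for Cyp4b1, -0.36 for Cyp4a1 spot 990, -0.32 for Cyp4f1 and 0.61 and 0.64 for Cyp4a2/Cyp4a3. Read as Cy5 over Cy3, 1 member, 6 list genes and 392 features were lower and 10, 20 and 533 higher. Signs turned for Cyp1a2 (0.78), Cyp3a23-3a1 (0.68), Cyp4a1 (0.75 and 0.66), Cyp4b1 (0.35), Cyp4f1 (0.70), Cyp4f17 (0.0074), Cyp4f4 (0.49) and Cyp4f6 (0.20), while Cyp4a8 passed (-0.65). They turned for spots 198 (0.74), 410 (-0.42), 436 (0.72), 642 (0.55), 750 (0.43), 1244 (0.80), 1378 (-0.23) and 1713 (0.76). They also turned for Rxra (0.54), Nr1h4 (0.16), Por (0.22), Cyb5a (0.54), Cyb5b (0.60), Pgrmc1 (0.65), Nqo1 (0.10), Gsta2 (0.38), Aldh1a1 (-0.0508), Acsl1 (0.61), Cd36 (0.0849), Hadhb (0.0583), Cyp2c23 (0.61), Ahr (-0.42), Slc22a8 (0.67), Tspo (0.72), Hipk3 (0.57), Igfals (0.54), Cyp27a1 (0.72), Fgfr3 (0.52), Avpr1a (0.49) and Maob (0.29). Cyp1a2 minus Cyp3a23-3a1 became 0.10 and Cyp1a2 minus Cyp4f4 0.29, and the differences from Cyp4a2/Cyp4a3 shrank to -0.055 for Cyp1a2, -0.16 for Cyp3a23-3a1 and -0.35 for Cyp4f4. Leaving out 1 array at a time gave 5 to 7 members lower and 2 higher, against 144 to 198 features lower and 96 to 144 higher. Of the list genes, 14 were lower with all arrays and 8 to 13 with 1 left out, lowest without array 4 (8) and array 3 (9). Cyp4b1 ranged from -0.59 to -0.32, Cyp4f17 from -0.30 to 0.04 (0.03995), Cyp4a1 spot 1698 from -0.17 to 0.0064, Cyp4f6 spot 410 from -0.0708 to 0.0939, spot 436 from -0.49 to -0.22 and Cyp3a23-3a1 minus Cyp4f4 from -0.0278 to 0.32. Where a sign or call turned, the cause was not tested. Each ratio already pairs the ligation and sham pools of its array, and the arrays form 1 group, so no further pairing was made. Signal over background was not used here, so what dim spots limit was not assessed.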
